A study of Mus musculus with 4 samples.

Results

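Of 15533 cell barcodes from CD4 T cells of mouse lung, 1135 passed a filter on cells and carried exactly 2 productive T cell receptor beta chains. A barcode is the tag that marks all RNA caught in 1 droplet, and a productive chain is an assembled receptor RNA with an open reading frame through the junction. The filter kept barcodes if they held at least 500 detected genes and under 10% mitochondrial UMIs (unique molecular identifiers, 1 per captured RNA molecule). Barcodes with exactly 2 productive beta chains (2-beta barcodes) were then set beside those with exactly 1 (1-beta barcodes). The tumor-bearing lung gave 533 of them among 7668 kept barcodes, and the normal lung gave 602 among 7684.

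The cells came from C57BL/6 mice. The tumor-bearing group had received TC1 tumor cells by tail vein 3 weeks earlier, and the normal group was age-matched mice without tumor. Live CD4+ cells were sorted from perfused, digested lungs, and each suspension gave 1 gene expression library and 1 receptor library by the 10x 5′ droplet method, aimed at 10000 cells. The number of mice behind a suspension is not in the labels. Each tissue is 1 library, so no difference was tested against a replicate spread, and every interval below covers counting error only.

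A T cell assembles its beta chain from V, D and J segments on chromosome 6, and allelic exclusion normally stops the second copy of the locus from yielding a second productive beta chain. The alpha locus is less strictly excluded, so a single cell often carries 2 alpha RNAs. A barcode with 2 beta chains can be a cell in which both copies of the beta locus are productive, or a droplet that held 2 cells, called a doublet. A doublet brings the RNA of both cells, both sets of alpha chains and the programs of both cells under 1 barcode.

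The junction sequences below are those of the pairs of beta chains found in the most barcodes of the tumor-bearing lung, and of 1 normal pair with and 1 without a shared alpha chain. Each is the complementarity-determining region 3 of the receptor RNA, 5′ to 3′, as the deposited tables list it. Capitals mark the bases between the commonest start for that V gene and the commonest end for that J gene in these tables. In a beta chain they can include bases of a D segment, so they are not all particular to a clone. The alpha chain of normal pair 7 has 0 capitals. In the tumor-bearing lung, 1 pair occurred in 8 barcodes, all 8 with the same alpha chain:

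Tumor pair 1, beta TRBV1 TRBJ1-2: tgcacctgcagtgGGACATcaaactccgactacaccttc

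Tumor pair 1, beta TRBV12-2 TRBJ2-3: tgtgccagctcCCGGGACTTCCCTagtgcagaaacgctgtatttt

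Tumor pair 1, alpha TRAV4-4-DV10 TRAJ32: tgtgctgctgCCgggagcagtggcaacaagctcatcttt

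A second tumor pair occurred in 3 barcodes, again all with 1 alpha chain:

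Tumor pair 2, beta TRBV1 TRBJ2-7: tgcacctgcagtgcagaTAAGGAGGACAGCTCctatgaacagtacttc

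Tumor pair 2, beta TRBV13-3 TRBJ2-7: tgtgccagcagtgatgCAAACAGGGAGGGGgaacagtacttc

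Tumor pair 2, alpha TRAV13D-2 TRAJ27: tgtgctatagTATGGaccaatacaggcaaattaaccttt

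In the normal lung, pair 7 occurred in 2 barcodes with the same alpha chain, whereas the 2 barcodes of pair 5 each listed a different alpha chain:

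Normal pair 7, beta TRBV3 TRBJ2-2: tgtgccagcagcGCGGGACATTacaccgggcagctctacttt

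Normal pair 7, beta TRBV31 TRBJ2-7: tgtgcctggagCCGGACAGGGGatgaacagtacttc

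Normal pair 7, alpha TRAV9-1 TRAJ37: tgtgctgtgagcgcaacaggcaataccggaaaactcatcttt

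Normal pair 5, beta TRBV5 TRBJ1-2: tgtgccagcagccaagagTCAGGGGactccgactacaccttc

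Normal pair 5, beta TRBV3 TRBJ2-5: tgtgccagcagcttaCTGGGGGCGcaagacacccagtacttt

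Normal pair 5, alpha of the first barcode or the other, TRAV8-1 TRAJ30: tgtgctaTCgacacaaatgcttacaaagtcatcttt

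Normal pair 5, the remaining alpha, TRAV9N-4 TRAJ23: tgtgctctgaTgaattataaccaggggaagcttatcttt

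In genome assembly GRCm38.p6, the V segment of the shared TRBV1 chains, Trbv1, lies at chr6:40891296-40891885. Trbv12-2 lies at chr6:41118864-41119364 and Trbv13-3 at chr6:41130147-41130585. Trbv31, which joins from the far end of the locus, lies at chr6:41557693-41558371. The values of these pairs are given after those of all 2-beta barcodes.

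Barcodes with a beta chain numbered 6866 in the tumor-bearing lung, of which 7.76% held 2 (95% Clopper-Pearson interval 7.14% to 8.42%). For the normal lung the share was 8.57% of 7028 (7.92% to 9.24%). The 2 intervals overlapped. A further 802 and 656 kept barcodes listed no productive beta chain. The libraries shared 86 cell barcodes, 71 of which had a beta chain in both, and none of those 71 had the same beta chain in both. No pair of beta chains occurred in both libraries. The kept cells carried T cell RNA on both sides of the comparison: at equal depth, Cd3e, a subunit of the receptor complex, was seen in 91.8% of 2-beta and 93.0% of 1-beta barcodes of the tumor-bearing lung, and in 95.1% and 93.8% of the normal lung. Cd8a, which marks the other main T cell lineage, had 0 UMIs in 2-beta barcodes of either library. It had only 4 (tumor) and 2 (normal) UMIs in all 1-beta barcodes, so its absence says little. Cd8b1, the other gene of the CD8 list, was seen at equal depth in 3.07% of 2-beta and 3.65% of 1-beta barcodes of the tumor-bearing lung. In the normal lung the shares were 3.81% and 4.17%.

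Barcodes with 2 beta chains held more RNA. In tumor-bearing lung the median was 6870 UMIs (quartiles 4428 and 8627) against 4211 (3534 and 5036) in 1-beta barcodes, a ratio of medians of 1.63. In normal lung it was 6109 (3928 and 7892.5) against 3921.5 (3293 and 4578), a ratio of 1.56. Detected genes followed, with medians of 2150 against 1538 in the tumor-bearing lung and 1924.5 against 1430 in the normal lung. When UMIs were drawn at random down to 2578 per barcode (a depth that 10% of the normal library's 1-beta barcodes did not exceed), the ratios of the gene medians were 1.01 in both libraries. The mitochondrial share was alike, with medians of 2.25% on both sides of the tumor library and 2.56% against 2.59% in the normal library.

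The distribution of UMIs had 2 peaks in each library. In the tumor-bearing lung, bins of 1000 UMIs held most 2-beta barcodes at 4000 to 5000 UMIs (15.9%) and again at 8000 to 9000 (15.2%), with 8.82% at 6000 to 7000 between them. In lung without tumor the peaks lay at 4000 to 5000 UMIs (15.0%) and at 7000 to 8000 (16.8%). The lower peak lay within the range of 3000 to 5000 UMIs where 1-beta barcodes were most frequent. Their highest bin was 4000 to 5000 UMIs in the tumor-bearing lung (32.3%) and 3000 to 4000 in the normal lung (36.1%). More than 2 times the 1-beta median was reached by 28.1% of 2-beta barcodes in the tumor-bearing lung (24.4% to 32.2%), against 3.17% of 1-beta barcodes (2.76% to 3.64%). In the normal lung the shares were 26.2% (22.8% to 30.0%) and 1.18% (0.933% to 1.48%). Conversely, 110 of the 533 tumor 2-beta barcodes (20.6%) and 150 of the 602 normal ones (24.9%) lay below the median of the 1-beta barcodes.

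**Figure D1:**
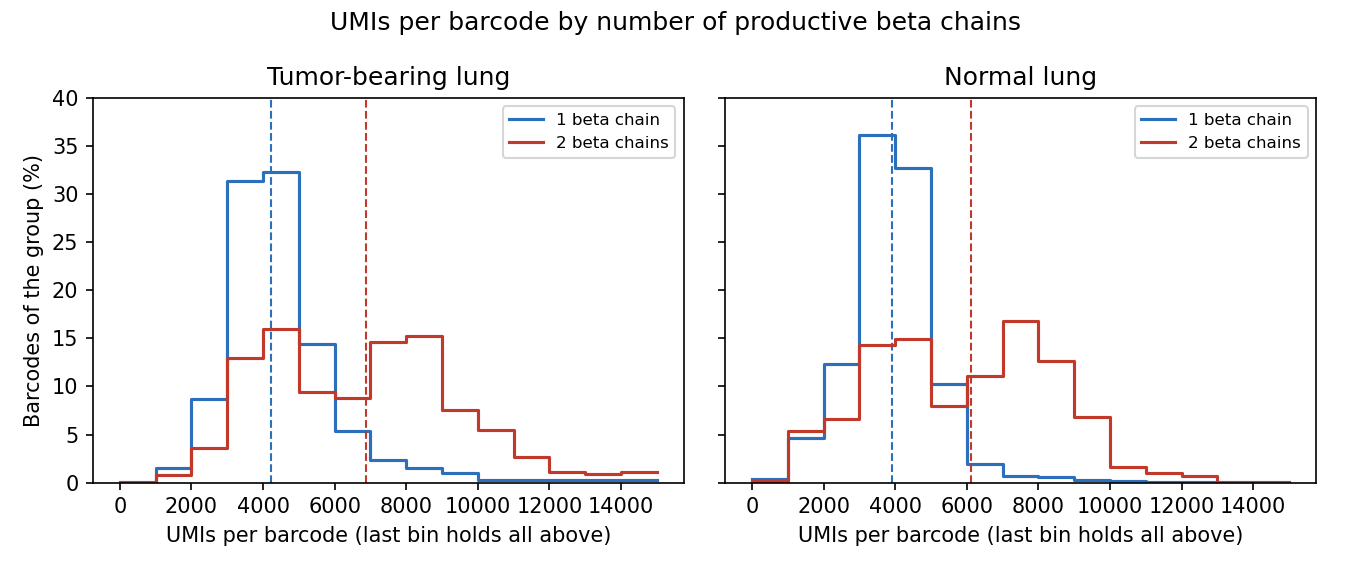
UMIs per barcode (x axis, bins of 1000) as a percentage of each group (y axis) in the tumor-bearing and the normal lung, with dashed lines at the medians. Barcodes with 1 beta chain form a single peak near 4000 UMIs, and those with 2 beta chains form one at 4000 to 5000 and another between 7000 and 9000.

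Bands of UMIs separated the 2 peaks. Among barcodes with 3000 to 5000 UMIs, 2 beta chains occurred in 3.68% of 4189 barcodes with a beta chain in the tumor-bearing lung (3.13% to 4.29%) and in 3.83% of 4599 in the normal lung (3.29% to 4.42%). At 7000 to 9000 UMIs they occurred in 39.4% of 404 (34.6% to 44.3%) and in 69.1% of 256 (63.1% to 74.7%). The share in that band was thus higher in the normal lung by more than the counting error, while the shares at 3000 to 5000 UMIs overlapped. The normal lung had fewer 1-beta barcodes of high content, 79 against 245 in that band.

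Barcodes with 2 beta chains more often had 2 alpha chains, but not at every depth. The deposited tables list at most 2 productive chains of a kind per barcode, so more than 2 productive alpha chains could not be seen in any barcode. In tumor-bearing lung 37.0% of 2-beta barcodes held 2 alpha chains (32.9% to 41.2%), against 11.2% of 1-beta barcodes (10.4% to 11.97%). For the normal lung the shares were 33.6% (29.8% to 37.5%) and 8.89% (8.20% to 9.61%). No alpha chain was listed for 4.50% of 2-beta and 9.92% of 1-beta barcodes in the tumor-bearing lung, and for 9.63% and 15.0% in the normal lung.

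At 3000 to 5000 UMIs the alpha numbers of the groups were alike. There, 9.74% of 154 tumor 2-beta barcodes held 2 alpha chains (5.55% to 15.6%), against 9.62% of 4035 1-beta barcodes (8.72% to 10.6%). In normal lung it was 9.09% of 176 (5.29% to 14.3%) against 8.32% of 4423 (7.52% to 9.17%). At 5000 to 7000 UMIs the groups parted, with 36.1% against 13.4% in the tumor-bearing lung and 46.1% against 10.7% in the normal lung. At 7000 to 9000 UMIs the tumor values were 52.2% (44.1% to 60.2%) against 22.9% (17.8% to 28.6%). The normal values in that band, 54.2% (46.6% to 61.7%) and 39.2% (28.4% to 50.9%), had overlapping intervals, with only 79 1-beta barcodes.

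**Figure D2:**
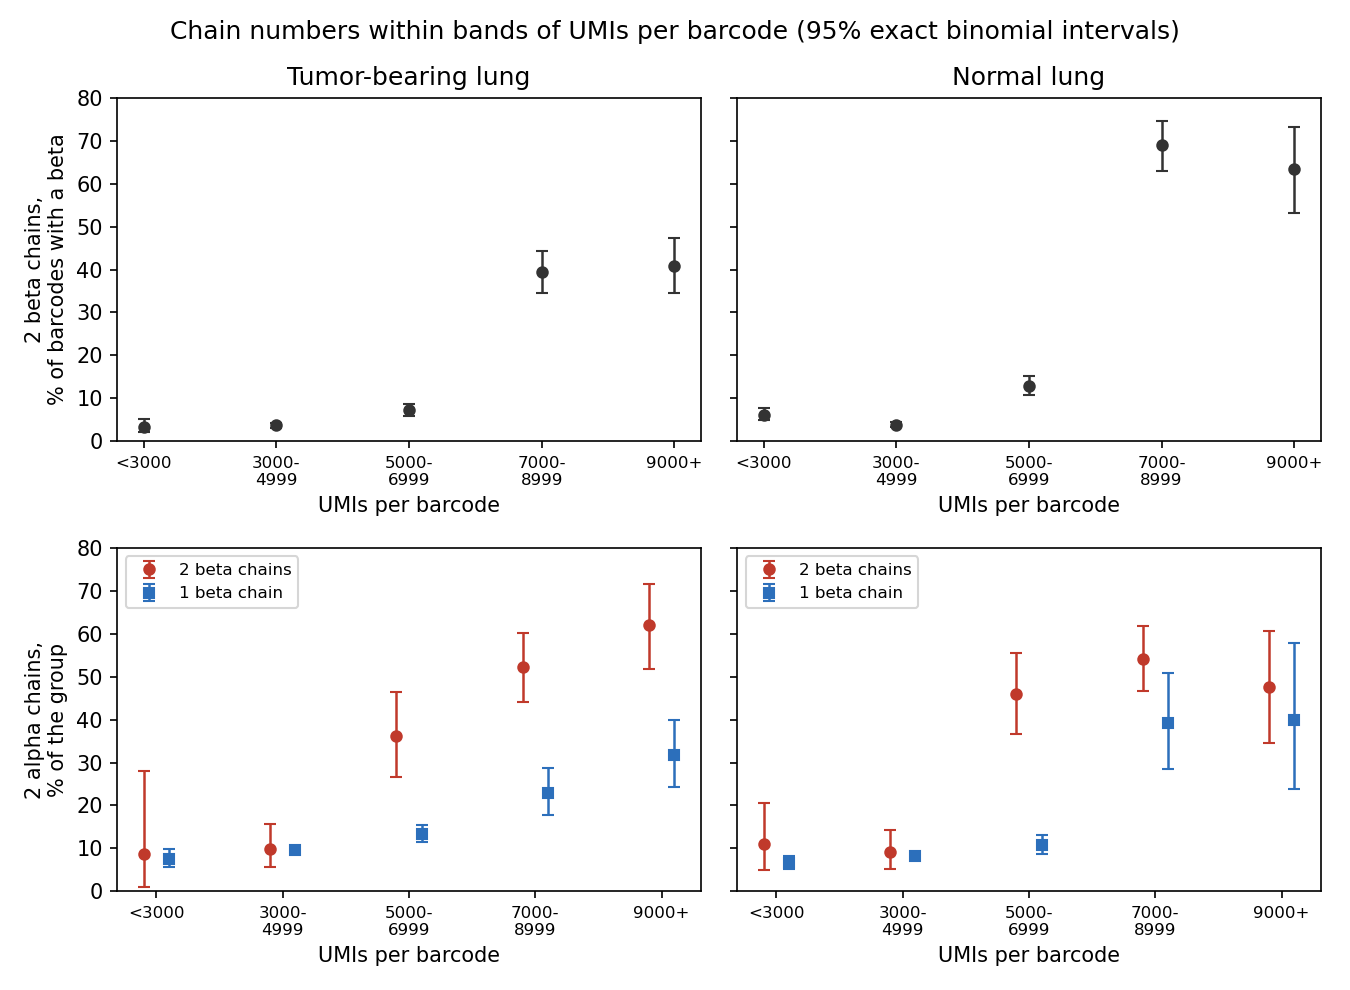
Upper row, the percentage of barcodes with a beta chain that held 2 of them, and lower row, the percentage of 2-beta and 1-beta barcodes that held 2 alpha chains, by band of UMIs per barcode, with 95% exact binomial intervals. Below 5000 UMIs the 2 groups had like shares with 2 alpha chains, and 2-beta barcodes made up 39.4% and 69.1% of barcodes at 7000 to 9000 UMIs.

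Depth differed with the number of alpha chains, more among 2-beta than among 1-beta barcodes. Tumor 2-beta barcodes with 0, 1 and 2 alpha chains had medians of 4187.5, 5323.5 and 8071 UMIs, where 1-beta barcodes had 3970, 4204.5 and 4522. In lung without tumor the 2-beta medians were 3826, 4796.5 and 7388.5, and the 1-beta medians 3673, 3962 and 4031. With exactly 1 alpha chain on both sides, the ratio of the UMI medians was 1.27 in the tumor-bearing lung and 1.21 in the normal lung. With exactly 2 alpha chains it was 1.78 and 1.83.

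A diploid cell has 2 copies of each receptor locus, so the number of rearranged segments, productive or not, bears on how many cells a barcode holds. Full-length alpha RNAs with both a V and a J segment exceeded 2 in 20.5% of tumor 2-beta barcodes (17.1% to 24.1%) and in 1.17% of 1-beta barcodes (0.919% to 1.46%). In the normal lung they exceeded 2 in 18.4% (15.4% to 21.8%) and 0.638% (0.458% to 0.865%). The tumor 2-beta barcodes with more than 2 such alpha RNAs had a median of 8506 UMIs, against 5656.5 in the others. For the normal lung the medians were 7640 and 5040.

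A nonproductive full-length beta RNA, which in a 2-beta barcode comes on top of 2 productive ones, was listed in 15.9% of tumor 2-beta barcodes (12.9% to 19.3%). In 1-beta barcodes, where it would be only the second segment, the share was 13.5% (12.6% to 14.3%). In normal lung it was 16.9% (14.0% to 20.2%) against 14.6% (13.8% to 15.5%), and the intervals overlapped in both libraries. Counting both chains, more than 2 segments of a chain were listed for 31.0% of tumor and 31.2% of normal 2-beta barcodes, against 1.47% and 1.09% of 1-beta barcodes. The beta part of that difference follows in part from the choice of the groups, since 2-beta barcodes start with 2 beta segments. Within 3000 to 5000 UMIs the shares were 3.90% of 154 (1.44% to 8.29%) against 0.768% in the tumor-bearing lung, and 6.82% of 176 (3.57% to 11.6%) against 0.588% in the normal lung. At 7000 to 9000 UMIs they were 51.6% against 6.12%, and 53.1% against 13.9%. With every listed RNA counted, those without a V segment included, more than 2 of a chain were found in 58.3% against 13.1% in the tumor-bearing lung and 59.5% against 14.0% in the normal lung.

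In the median, the weaker of the 2 beta chains gave a slightly smaller share of UMIs than the weaker of 2 alpha chains in 1-beta barcodes. The weaker chain gave a median of 37.0% of the beta UMIs in the tumor-bearing lung (quartiles 28.6% and 42.9%) and 36.8% in the normal lung (28.6% and 43.8%). For comparison, the weaker of 2 alpha chains in 1-beta barcodes gave 38.1% and 40.0% of the alpha UMIs. The weaker beta chain had a median of 5 UMIs in both libraries, and the stronger had 9 and 10. Both together gave 15 UMIs, against 8 for the single chain of 1-beta barcodes, in both libraries. A weaker chain below 20% of the beta UMIs was seen in 31 tumor and 32 normal barcodes, and one resting on 1 UMI in 6 and 13. By depth, tumor medians were 38.5% at 3000 to 5000 UMIs, 35.3% at 7000 to 9000 and 35.5% above, and normal medians were 35.5%, 40.0% and 33.3%. Tumor barcodes with a weaker chain below 20% had a median of 8599 UMIs, against 6001.5 where it reached 40%, and the normal medians were 6362 and 6186. How the receptor assembler discards weak chains is not given in the sources used here, and it limits what low shares can appear.

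**Figure D3:**
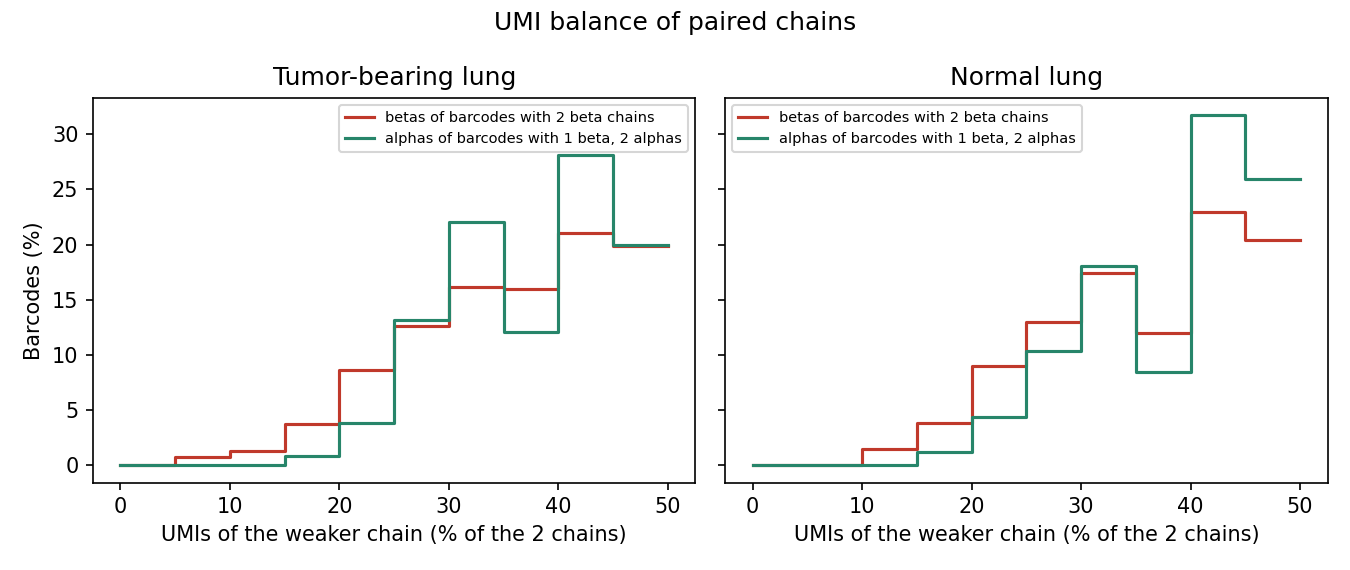
Percentage of barcodes (y axis) by the weaker chain's share of the UMIs of both chains (x axis, bins of 5 percentage points), for the beta chains of 2-beta barcodes and the alpha chains of 1-beta barcodes with 2 alpha chains. Both lie mostly above 20%, with medians of 37.0% and 38.1% in the tumor-bearing lung and 36.8% and 40.0% in the normal lung.

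The V gene of the second beta chain was also seen in the gene expression library. Both libraries come from the RNA of the same droplets, so a V gene UMI in gene expression is not an independent observation of the chain. Among 436 tumor 2-beta barcodes whose chains used different V genes found in the gene table, 92.4% held a UMI of the weaker chain's V gene (89.5% to 94.7%). The stronger chain's V gene was seen in 96.6%, and the only V gene of 1-beta barcodes in 93.7%. In 1-beta barcodes that used another V gene, the same V genes were seen in 1.95%. In lung without tumor the values were 93.8% of 481 (91.2% to 95.8%), 96.0%, 94.4% and 2.45%. At equal depth the weaker chain's V gene was seen in 75.3% (tumor) and 83.1% (normal) of barcodes, against 1.38% and 1.84% in 1-beta barcodes with another V gene.

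TRBV19, TRBV3 and TRBV31 were the most used V genes of the tumor 2-beta barcodes, with 10.7%, 9.38% and 8.44% of their 1066 chains, against 9.85%, 10.6% and 8.27% of the 1-beta chains. The V genes named next were chosen after their values were seen, as those whose interval lay on the same side of 1 in both libraries. TRBV2 made up 3.85% of 2-beta and 5.72% of 1-beta chains in the tumor-bearing lung, a ratio of 0.673 (exact 95% interval 0.475 to 0.931), and 3.32% against 5.80% in the normal lung, a ratio of 0.572 (0.402 to 0.794). TRBV29 went the other way, with ratios of 1.68 (1.04 to 2.62) and 2.13 (1.41 to 3.17). TRBV15 had ratios of 1.45 (1.06 to 1.96) and 1.43 (1.07 to 1.90). Both chains used the same V gene in 28 tumor and 48 normal barcodes. In 1 tumor barcode both listed chains had the same junction bases. In the normal lung 0 of 602 did, which allows a share of up to 0.498% (3 counts of 602).

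Foxp3 is the transcription factor that defines regulatory T cells (Treg), while Ccr7, Lef1, Tcf7, S1pr1, Klf2, Igfbp4, Dapl1 and the other markers of the naive list belong to resting cells that recirculate through lymph nodes. Some Treg express part of the naive list. At equal depth, 13.8% of 522 tumor 2-beta barcodes (10.95% to 17.1%) held Foxp3, against 12.95% of 6030 1-beta barcodes (12.1% to 13.8%). For the normal lung it was 3.27% of 551 (1.95% to 5.11%) and 2.28% of 5783 (1.91% to 2.70%). In 1-beta barcodes chosen for Ccr7 and Lef1 and for no UMI of 7 other Treg genes, Foxp3 was seen in 0.626% of 1758 and 0.271% of 2580. The choice itself removes Treg, so these low shares follow from it in part and are not a background for unselected barcodes. The chosen barcodes had 4228.5 and 4030 UMIs before thinning, in the median, against 7469.5 and 5936 in 2-beta barcodes with Foxp3.

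Foxp3 and Ccr7 occurred together more often in 2-beta barcodes of the tumor-bearing lung. At equal depth they shared 38 of 522 barcodes, 7.28% (5.20% to 9.86%), against 3.70% of 1-beta barcodes (3.24% to 4.21%). In normal lung it was 15 of 551, 2.72% (1.53% to 4.45%), against 1.75% (1.42% to 2.12%), with overlapping intervals. Without thinning the shares were 13.7% against 5.37% and 4.15% against 2.46%. Thinning left out 11 tumor 2-beta, 303 tumor 1-beta, 51 normal 2-beta and 643 normal 1-beta barcodes as too shallow.

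Read among the barcodes with Foxp3, at equal depth, Ccr7 was seen in 52.8% of 72 tumor 2-beta barcodes (40.7% to 64.7%) against 28.6% of 781 1-beta barcodes (25.4% to 31.9%). Igfbp4, which binds insulin-like growth factors, was seen in 18 of them, 25% (15.5% to 36.6%) against 6.40% (4.79% to 8.35%). Tcf7, a transcription factor of naive and memory T cells, was seen in 22.2% (13.3% to 33.6%) against 7.68% (5.91% to 9.78%). Satb1, a chromatin organizer, was seen in 36.1% (25.1% to 48.3%) against 16.5% (14.0% to 19.3%). The 11 naive markers plotted here all had the higher share in 2-beta barcodes, and the intervals did not overlap for Ccr7, Lef1, Tcf7, S1pr1, Igfbp4, Dapl1 and Satb1. For Klf2, Bach2, Txk and Actn1 they did. At least 6 of the 12 markers were seen in 27.8% of the 72 barcodes (17.9% to 39.6%) against 9.09% (7.17% to 11.3%), and none of them in 12.5% against 22.02%.

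In lung without tumor only 18 thinned 2-beta barcodes held Foxp3, and Foxp3 barcodes carried naive markers on both sides. Ccr7 was seen in 83.3% (58.6% to 96.4%) against 76.5% of 132 (68.4% to 83.5%). Igfbp4 was seen in 9 of the 18 (26.0% to 74.0%) against 17.4% (11.4% to 24.99%), the intervals of which did not overlap. At least 6 of the 12 markers were seen in 77.8% (52.4% to 93.6%) against 47.0% (38.2% to 55.8%). S1pr1 and Txk had the lower share in 2-beta barcodes, 61.1% against 65.9% and 22.2% against 29.5%.

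**Figure D4:**
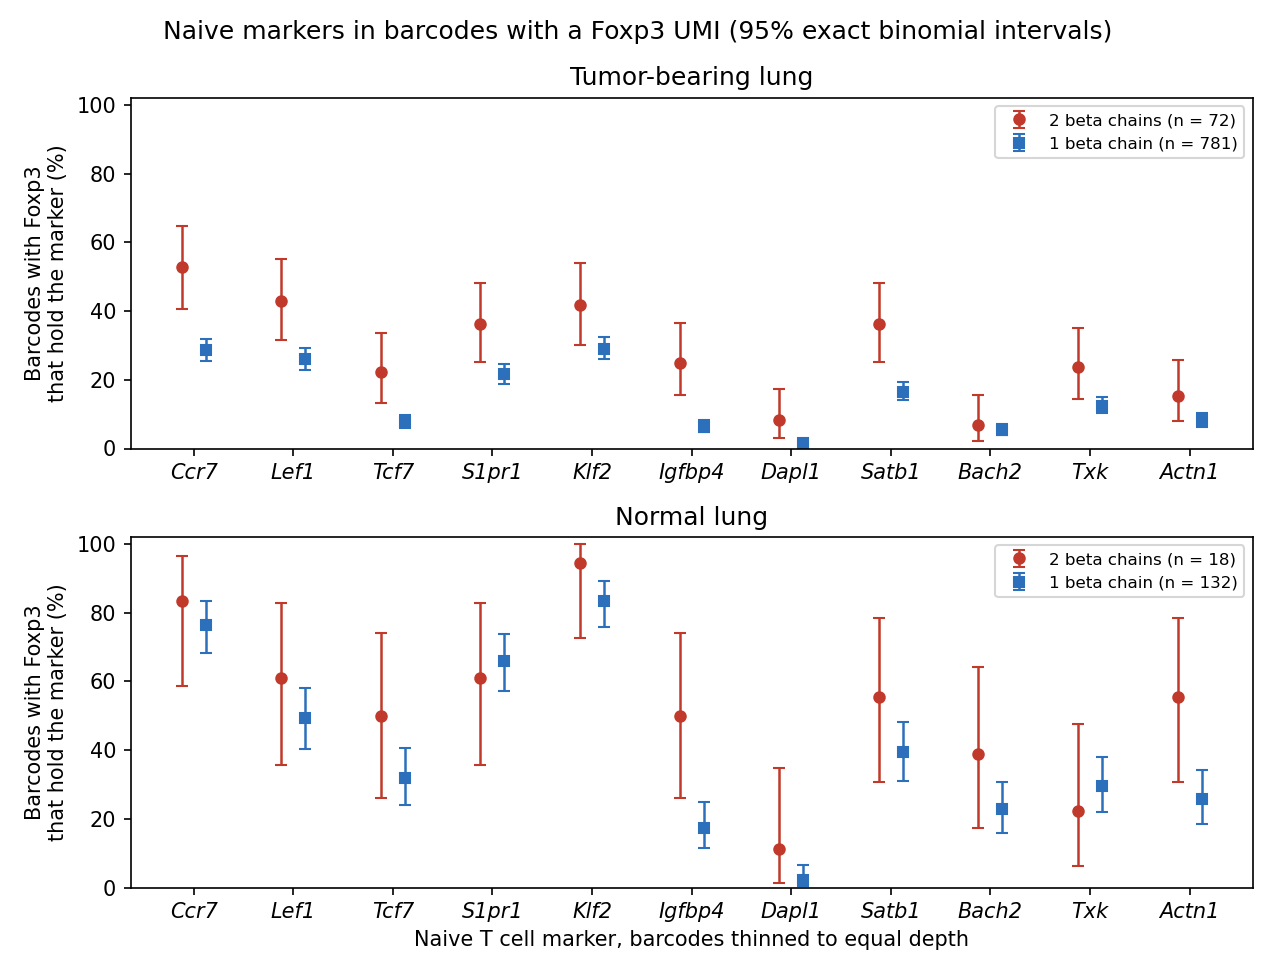
Percentage of barcodes with a Foxp3 UMI that also held each of 11 naive markers, at equal depth, with 95% exact binomial intervals. In the tumor-bearing lung every marker shown had its higher share in 2-beta barcodes, for example 25% against 6.40% for Igfbp4, and in the normal lung the 18 such barcodes give wide intervals.

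By depth, the contrast differed with the share taken. Among tumor barcodes with under 5000 UMIs, Foxp3 and Ccr7 together, at equal depth, were seen in 6.02% of 166 2-beta barcodes (2.93% to 10.8%) against 2.62% of 4387 1-beta barcodes (2.17% to 3.14%). With 7000 UMIs or more the order was the reverse, 8.49% of 259 (5.40% to 12.6%) against 12.6% of 390 (9.44% to 16.3%), with overlapping intervals. Foxp3 itself was common in 1-beta barcodes of that depth, in 36.7%, where 2-beta barcodes had it in 15.8%. Among the barcodes with Foxp3, Ccr7 was seen in 45.5% of 22 (24.4% to 67.8%) against 27.3% of 421 (23.1% to 31.8%) under 5000 UMIs, and in 53.7% of 41 (37.4% to 69.3%) against 34.3% of 143 (26.5% to 42.7%) with 7000 or more, again with overlapping intervals. Normal barcodes with Foxp3 and under 5000 UMIs had Ccr7 in 5 of 7 with 2 beta chains, 71.4% (29.0% to 96.3%), against 80.8% of 104 with 1 (71.9% to 87.8%).

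Other pairs of genes, chosen after values were seen, differed in some cases and not in others. Ccl5, a chemokine of Th1 and cytotoxic cells, occurred with Ccr7 in 3.45% of tumor 2-beta barcodes (2.06% to 5.40%) against 1.41% of 1-beta barcodes (1.13% to 1.74%), and in 3.09% (1.81% to 4.89%) against 0.484% (0.322% to 0.699%) in the normal lung. Ccl5 alone was seen in 8.43% against 7.01% in the tumor-bearing lung, and in 4.17% against 2.80% in the normal lung. Tnfrsf9, a costimulatory receptor of activated T cells and Treg, occurred with Igfbp4 in 4.21% (2.66% to 6.31%) against 1.04% (0.804% to 1.33%) in the tumor-bearing lung. The normal values, 0.544% (0.112% to 1.58%) and 0.329% (0.198% to 0.513%), had overlapping intervals. Tmem176b with Ccr7 also had overlapping intervals in the tumor-bearing lung, at 1.53% (0.664% to 3.00%) against 0.846% (0.630% to 1.11%). Its normal values, 1.27% (0.512% to 2.60%) and 0.536% (0.365% to 0.760%), overlapped too. Gzmb, which encodes the cytotoxic protease granzyme B, occurred with Igfbp4 in 1.34% of tumor 2-beta barcodes (0.541% to 2.74%) against 0.249% (0.139% to 0.410%), and in 0 of 551 normal ones against 1 of 5783.

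Summed over all barcodes of a group, expression was nearly the same. Counts were expressed as CPM (counts scaled to 1000000 UMIs of the group), and 4748 genes had at least 20 CPM over both groups in each library. A ratio of 1.5 or more in favour of 2-beta barcodes was reached by 1 gene in the tumor-bearing lung (0.0211% of genes tested) and by 0 in the normal lung (0%). The reverse was reached by 0 genes in the tumor-bearing lung (0%) and by 3 in the normal lung (0.0632%). In both libraries at once, 0 genes passed in either direction (0% and 0%). The median log2 ratio over all tested genes was -0.01 in both libraries.

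S100a6 (ENSMUSG00000001025), a calcium-binding protein, had the smallest mean ratio over both libraries. It was at 309 CPM in 2-beta and 388 in 1-beta barcodes of the tumor-bearing lung, a ratio of 0.797 (exact 95% interval 0.749 to 0.847). In the normal lung it was at 64.4 against 116, a ratio of 0.555 (0.484 to 0.635). The intervals of CPM ratios, here and below, treat each UMI as a separate draw. They leave out the spread between barcodes and are therefore too narrow for a gene whose UMIs are concentrated in few barcodes. Lgals1, which encodes the lectin galectin-1, had ratios of 0.762 (0.714 to 0.812) and 0.690 (0.630 to 0.755). Anxa2, Ccl5, Evi2a, Hopx, Nkg7, Hyou1 and Adprhl2 also had ratios below 1 in both libraries. The intervals included 1 for Evi2a and Hyou1 in the tumor-bearing lung and for Adprhl2 in the normal lung. Ccl5 was at 133 against 164 CPM in the tumor-bearing lung and at 235 against 347 in the normal lung. The share of barcodes with Ccl5 at equal depth had the opposite order. It was 8.43% of 2-beta against 7.01% of 1-beta barcodes (tumor) and 4.17% against 2.80% (normal), with overlapping intervals. Fabp5, a fatty acid binding protein, was among these 10 by its mean alone, with 1.04 in the tumor-bearing lung and 0.515 (0.366 to 0.708) in the normal lung.

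At the other end, Tmem131 (ENSMUSG00000026116) had the largest mean ratio, 1.55 in the tumor-bearing lung (1.25 to 1.91) and 1.33 in the normal lung (1.06 to 1.67), at 30.6 against 19.7 and 26.1 against 19.5 CPM. Others at this end were 1700056E22Rik, Larp1, Usp7, Pabpn1, Rnf213, Pds5a, Tcf20 and Pmepa1. The intervals of Pabpn1, Pds5a and Pmepa1 included 1 in the tumor-bearing lung. Rnf213, a ubiquitin ligase, had ratios of 1.35 (1.22 to 1.49) and 1.25 (1.07 to 1.44). Apart from Rnf213, each of these genes rested on 93 to 156 UMIs in the 2-beta barcodes of a library.

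No tested gene of any marker list was past 1.5-fold in either library. All 12 naive genes were tested, with a median log2 ratio of 0.03 in the tumor-bearing and 0.02 in the normal lung. Of the Treg list, 5 of 12 genes passed the minimum level in both libraries, with medians of -0.18 and -0.00. Foxp3, at 122 against 143 CPM in the tumor-bearing and 17.1 against 18.0 in the normal lung, had ratios of 0.849 (0.768 to 0.937) and 0.951 (0.716 to 1.24). Of the Th1 and cytotoxic list, 2 of 12 were tested, Ccl5 and Nkg7, both with ratios below 1 in both libraries and with median log2 ratios of -0.37 and -0.41. The interferon list had 7 of 15 tested, with medians of 0.01 and -0.03, and the immediate early list 11 of 12, with -0.02 and 0.00. Cycling barcodes, with a UMI of at least 2 of 5 cell cycle genes, made up 1.31% of tumor 2-beta and 1.03% of 1-beta barcodes, and 0.332% and 0.342% in the normal lung. These shares used all UMIs and were not matched for depth. At equal depth they were 0.575% of 522 against 0.299% (tumor) and 0.181% of 551 against 0.156% (normal). The 2-beta shares at equal depth rested on 3 tumor barcodes and 1 normal barcode.

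Markers of other cells were at similar or lower summed levels in 2-beta barcodes. The 8 B cell genes summed to 59.1 against 68.5 CPM in the tumor-bearing and 5.32 against 8.37 in the normal lung. Most of the tumor sum was Cd74, at 53.3 against 62.3 CPM. In the normal lung H2-Aa was higher in 2-beta barcodes, at 1.12 against 0.197 CPM, on only 4 and 5 UMIs. Ms4a1 and Iglc2 were at 0 UMIs in the 2-beta barcodes of both libraries. In 1-beta barcodes Ms4a1 was also at 0, and Iglc2 had 2 (tumor) and 1 (normal) UMIs, so their absence says little. The 11 myeloid genes summed to 83.1 against 88.3 and 70.3 against 67.1 CPM, nearly all of it Cst3. Lyz2, Cd14, C1qa and S100a8 were at 0 in 2-beta barcodes. Each had at most 2 UMIs in the 1-beta barcodes of a library, so this too says little. The 6 genes of NK and gamma-delta T cells summed to 1.93 against 3.58 and 3.36 against 2.75 CPM. The 7 of lung epithelium summed to 9.93 against 12.7 and 2.24 against 5.11 CPM, and the 4 erythrocyte genes were at 0 throughout. Of the CD8 list, Cd8b1 was at 11.9 against 15.4 CPM and 12.9 against 16.2.

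Most beta pairs occurred once. In tumor-bearing lung 5 pairs recurred, in 17 of 533 barcodes, 3.19% (1.87% to 5.06%), and in the normal lung 13 pairs recurred, in 28 of 602, 4.65% (3.11% to 6.65%). Among 1-beta barcodes, 508 of 6333 (8.02%) and 474 of 6426 (7.38%) shared their beta chain with another 1-beta barcode. These shares cannot be set against those of the pairs as like for like. A pair must match in 2 chains, and the 1-beta groups hold many more barcodes in which a match can be found. All 5 tumor pairs shared an alpha chain among their barcodes. For the normal lung 4 did, 8 did not, and 1 had no alpha chain listed. When only chains of at least 3 UMIs were counted, 4 pairs recurred in the tumor-bearing lung, all 4 with a shared alpha chain, and 5 in the normal lung, 3 of them with one.

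Tumor pair 1, whose sequences are shown above, joined TRBV1 and TRBV12-2 in 8 barcodes of 2577 to 7850 UMIs, with a median of 4520. In the order of the deposited barcodes the 8 held 4, 5, 2, 8, 5, 10, 7 and 0 Foxp3 UMIs. Foxp3 was thus seen in 7 of 8, and the 8th was the shallowest. Ctla4, an inhibitory receptor of Treg, was seen in all 8 with 2 to 10 UMIs, and Tnfrsf9 in 7 of 8. Ccr7 was seen in 2, with 50 UMIs in 1 barcode and 2 in another, and Igfbp4 in 0. The TRBV1 chain had 3 to 17 UMIs and the TRBV12-2 chain 2 to 7, and each V gene had at least 2 UMIs in the gene expression of every barcode. The TRBV1 chain also occurred alone in 6 barcodes, 4 of which had the pair's alpha chain, and the TRBV12-2 chain in 1 barcode, also with that alpha chain.

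Tumor pair 2, TRBV1 with TRBV13-3, had 3 barcodes of 3951, 4535 and 4840 UMIs, each with a single alpha chain and with 4, 7 and 3 Foxp3 UMIs. Il2ra, the interleukin-2 receptor alpha chain of Treg, had 3, 2 and 4 UMIs there. Tumor pair 5 had Foxp3 in both of its barcodes, with 2 UMIs each. Tumor pairs 3 and 4 had none. The 17 barcodes together had a median of 4427 UMIs, against 6947.5 for tumor 2-beta barcodes whose pair was seen once, and 1 of 17 listed 2 alpha chains (5.88%), against 38.0% of the others.

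In normal lung the pairs divided by their alpha chains. The 8 barcodes of the 4 pairs with a shared alpha chain had 3421 to 7298 UMIs, with a median of 4970.5. The 18 barcodes of the 8 pairs with no shared alpha chain had 841 to 4946 UMIs, with a median of 2156, below the lower quartile of 1-beta barcodes. Of these 8, pairs 1 and 2 each had 3 barcodes, of which only 2 listed an alpha chain, so the remaining barcode could not be compared. Pair 7, TRBV3 with TRBV31, was among the first, with 5756 and 7298 UMIs. Pair 5, TRBV5 with TRBV3, was among the second, with 1955 and 2336 UMIs, and pair 4, TRBV19 with TRBV31, had 841 and 1384. No Foxp3 UMI was seen in any of the 28 barcodes.

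The betas of normal pair 5 were each found again in a 1-beta barcode, of 1651 and 2693 UMIs. In each of these the alpha chain was 1 of the pair's 2, and not the same one. Of the 8 pairs with no shared alpha chain, 6 had at least 1 beta chain in a 1-beta barcode and 2, pairs 5 and 8, had both. Pair 8 differed from pair 5. The 1-beta barcodes of each of its beta chains held 2 of its 3 alpha chains, and 1 alpha chain was found with both. None of the 4 normal pairs with a shared alpha chain had a beta chain in a 1-beta barcode. Summing the UMIs of all barcodes of a pair gave 2225 to 9766 for the 8 pairs, with a median of 5437.5. The cell barcodes within a recurring pair differed at 8 or more of their bases in every pair, so none were near-identical. Whether several barcodes of a pair marked 1 droplet was not tested.

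**Figure D5:**
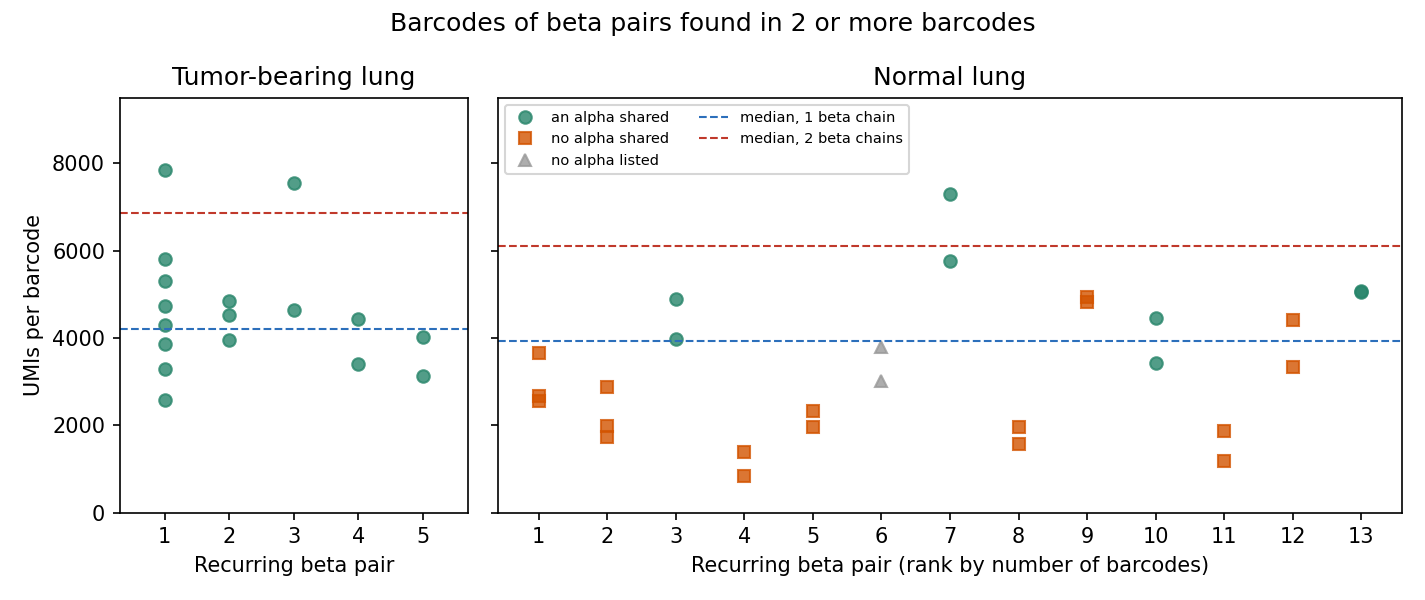
UMIs of every barcode that belonged to a recurring beta pair, by pair, with colour and shape for whether the barcodes shared an alpha chain and dashed lines at the medians of all 1-beta and 2-beta barcodes. Pairs with a shared alpha chain lie between 2577 and 7850 UMIs, and 5 of the 8 normal pairs without one have all barcodes below 3000 UMIs.

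Single beta chains that recurred had low depth in the normal lung, where 1-beta barcodes whose beta chain recurred had a median of 2383 UMIs, against 3969 where it was seen once. The order by alpha chain was opposite to that of the pairs, with 2414 UMIs where an alpha chain was shared, 3793 where none was and 2040 where too few were listed to tell. In the tumor-bearing lung the medians were 4791.5 and 4180. The recurring betas shared an alpha chain in 149 of 192 cases in the tumor-bearing lung and in 89 of 201 in the normal lung, where 77 had too few alpha chains listed to tell.

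Of the pairs seen once, 88.0% of the 516 tumor and 88.7% of the 574 normal ones had neither beta chain in any 1-beta barcode. In 57 tumor and 56 normal barcodes exactly 1 of the beta chains was found in 1-beta barcodes. Of these 57, 35 also held an alpha chain of those 1-beta barcodes, 15 of them beside another alpha chain. The 15 had a median of 9588 UMIs and the other 20 had 8718. In lung without tumor 23 of 56 held such an alpha chain, 8 of them beside another one, with medians of 7458.5 and 4049 UMIs. Of the 56 normal barcodes 13 could not be judged, and of the 57 tumor barcodes 3. For these, no alpha chain was listed in the barcode itself or in those 1-beta barcodes.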

How the data were processed

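Gene expression and receptor sequence were measured in CD4 T cells of tumor-bearing and normal lung, with 1 library of each kind per tissue. The gene expression files hold raw UMI counts per gene and barcode, made by the authors with Cell Ranger 3.1.0 per the file headers, on mm10 per the submitters' processing notes. The receptor tables hold deposited UMI and read counts per assembled chain, and the assembler's version and reference are not given in the sources used here. The gene expression libraries held 35633167 (tumor) and 31697386 (normal) UMIs over 31053 listed genes, and the receptor libraries 131798 and 127035.

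Barcodes were kept with at least 500 genes and under 10% mitochondrial UMIs and grouped by productive beta chains. Doublets were not removed, since they are among what the barcodes may be. Medians, quartiles and shares with 95% Clopper-Pearson intervals were computed, and exact conditional intervals for ratios. With 1 library per tissue there is no test. For equal depth, 2578 UMIs per barcode were drawn (seed 1). CPM ratios were taken of UMI counts summed per group. Genes named were those of the lists and, among genes of at least 20 CPM, the 10 largest and 10 smallest mean ratios, without receptor, mitochondrial, ribosomal and sex-linked genes. Recurring pairs were described singly up to the 12th of a library. Members and lists were chosen with earlier results of these data known. A few genes of the lists and of the ranking are not reported here. Gene coordinates came from RefSeq's GRCm38.p6 table. The code (Python 3.11.15, numpy 2.4.6, scipy 1.17.1, pandas 2.3.3) was tested on simulated data.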

Additional observations from a re-analysis of the deposited data

Results flagged for a closer look

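Recurring chains were of different depth in the 2 tissues, relative to the other barcodes of the same library. The median UMIs of 1-beta barcodes whose beta chain recurred, divided by that of barcodes whose chain was seen once, was 1.15 in the tumor-bearing lung and 0.600 in the normal lung. The median UMIs of barcodes in recurring beta pairs, divided by that of 1-beta barcodes, was 1.05 and 0.811. With 1 library per tissue, the difference between tissues was not tested. The normal receptor library also listed 20 barcodes with 2 productive beta chains that were not among the gene expression barcodes, out of 146 receptor barcodes of that kind, where the tumor library had 0 out of 23.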

How the results depend on the processing

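Of 170 alternatives of the main results, 143 left the value within its counting interval and 27 moved it. For counts of genes or pairs the limit was 1.5 times. A reversal of direction could be scored only for the UMI and gene ratios, where 0 occurred. The 143 include the share with more than 2 productive alpha chains, which was 0 by construction, with 6 alternatives per library. Of the 170, 24 were chosen after seeing the data. With exactly 2 alpha chains on both sides, the UMI ratio was 1.78 (tumor) and 1.83 (normal) and the gene ratio 1.48 and 1.501. With exactly 1 they were 1.27 and 1.21, and 1.22 and 1.14. Requiring 3 UMIs per chain gave a share beyond 2 listed RNAs of a chain of 47.8% and 45.3%, and in the normal lung a gene ratio of 1.42, a 2-beta share of 7.87% and 5 recurring pairs in place of 13, 3 of them with a shared alpha chain. The share with 2 alpha chains was then 26.5% and 21.1%. Requiring 2 UMIs gave 51.1% beyond 2 listed RNAs in the normal lung. Full-length RNAs alone gave 31.0% and 31.2%. The weaker chain's V gene was seen in 75.3% and 83.1% after thinning. Foxp3 with Ccr7 was seen in 4.33% and 1.36% at 1500 UMIs, with intervals of 2.77% to 6.43% and 0.590% to 2.67%, close to or around the 1-beta values of 2.57% and 1.24%. In tumor 2-beta barcodes it was 13.7% unthinned, against 5.37% of 1-beta barcodes. With 2 or more Foxp3 UMIs, unthinned, it was 11.3% against 3.92%. Igfbp4 in place of Ccr7 gave 3.45% against 0.829% of 1-beta barcodes (tumor). Dapl1 gave 1.15% against 0.199% (tumor) and 0.363% against 0.0519% (normal), on 6 and 2 of the 2-beta barcodes. At 5 CPM, 1 gene was past 1.5-fold higher in both libraries (Osbp, 2.21 and 1.62) and 1 lower (E2f2, 0.561 and 0.406), of 7991. Beyond the fewer molecules or barcodes that a setting leaves by construction, the cause was not tested. Leaving out the 86 barcodes found in both libraries moved none of these results. No paired analysis was possible because each tissue has 1 library, and for the same reason no replicate could be left out. By 3 counts of the total, a count of 0 allows a share of up to 0.563% of tumor and 0.498% of normal 2-beta barcodes.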
